A study of Mus musculus with 10 samples.

Results

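The genes described here are 10 outputs and feedback inhibitors of the MAPK pathway: Dusp4, Dusp6, Spry2, Spry4, Spred1, Spred2, Etv4, Etv5, Phlda1 and Fosl1. They were chosen by name. Their rows in a table of 92214 transcripts under 34162 gene names were summed by gene, giving 28 transcript rows for the 10 genes, and all 10 passed the filter on low counts that left 16805 genes to test. RNA was sequenced from mouse melanoma cells of a C57BL/6:SV129 background, separated by flow cytometry into GFP-positive cells, labelled c-Myc high, and GFP-negative cells, labelled c-Myc low. The 4 groups were metastatic c-Myc-high (3 libraries) and metastatic c-Myc-low (3), from lymph nodes holding metastases, and primary c-Myc-high (2) and primary c-Myc-low (2), from skin tumours, called metastases and primaries for short. The design contrasts metastatic with primary c-Myc-high cells. The labels give no allele, inducing treatment, age or driver of the GFP, and do not say from how many animals the libraries came. The spread that p-values rest on here is that between libraries and may be technical.

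In the MAPK pathway, receptor tyrosine kinases load RAS with GTP, and RAS drives the kinases RAF, MEK and ERK in turn. ERK phosphorylates transcription factors, and among the genes this turns on are inhibitors that act back on the pathway: dual-specificity phosphatases (DUSP) remove phosphate from ERK, Sprouty (SPRY) proteins act between receptor and RAF, and SPRED proteins bring the RAS inhibitor neurofibromin to the membrane. Melanoma commonly carries mutations that hold this pathway active, and the transcripts of these genes are widely used as a readout of ERK output in it.

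Levels are in CPM, counts scaled to library size with TMM factors, and the values of a group are listed in the order of its replicate numbers. Total estimated counts ran from 1603012 in primary c-Myc-high replicate 2 to 6844328 in primary c-Myc-low replicate 1. All 5 defining melanocyte markers (Mlana, Pmel, Tyr, Dct, Sox10) had counts in every library, and 12 melanocyte markers summed to 2903 to 20743 CPM in metastatic and 599 to 2868 CPM in primary libraries. The same sums for 16 keratinocyte markers were 34.2 to 354 CPM in metastatic and 29667 to 59694 CPM in primary libraries. For 16 leukocyte markers they were 187 to 5757 CPM in metastatic and 17.7 to 117.5 CPM in primary libraries. Salivary gland markers summed to 211220 and 62240 CPM in replicates 1 and 3 of the c-Myc-high metastases, against 9.65 to 771 CPM in the other 8 libraries. Fibroblast markers, 10 in all, summed to 5257 CPM in primary c-Myc-high replicate 2, against 69.4 to 703.5 CPM elsewhere. That library also had the lowest melanocyte sum (599 CPM). In such sorted bulk samples, fewer cells of a type and less RNA per cell cannot be told apart. No batch is given in the labels.

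Across the 10 genes, 1 was called lower and 1 higher in metastatic than in primary cells. The comparison is the mean of the site differences in both c-Myc classes, and a gene was called at an adjusted p under 0.05 (edgeR quasi-likelihood test, Benjamini-Hochberg adjustment over 16805 genes). Fosl1 fell by 4.97 on the log2 scale and Spry4 rose by 3.46. Of all genes tested, 5.65% were called lower, 8.13% higher and 13.8% in either direction, so 2 called of 10 is close to that background. Of the 10 fold changes, 9 were positive, with a median of 1.11, against 57.6% positive and a median of 0.28 over all genes. Without metastatic c-Myc-high replicates 1 and 3, the salivary-rich libraries, those of Dusp6, Spry2, Spred1, Spred2 and Phlda1 turned negative. That left 1 library in the group, metastatic c-Myc-high replicate 2, which had the highest leukocyte marker sum (5757 CPM).

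**Figure D1:**
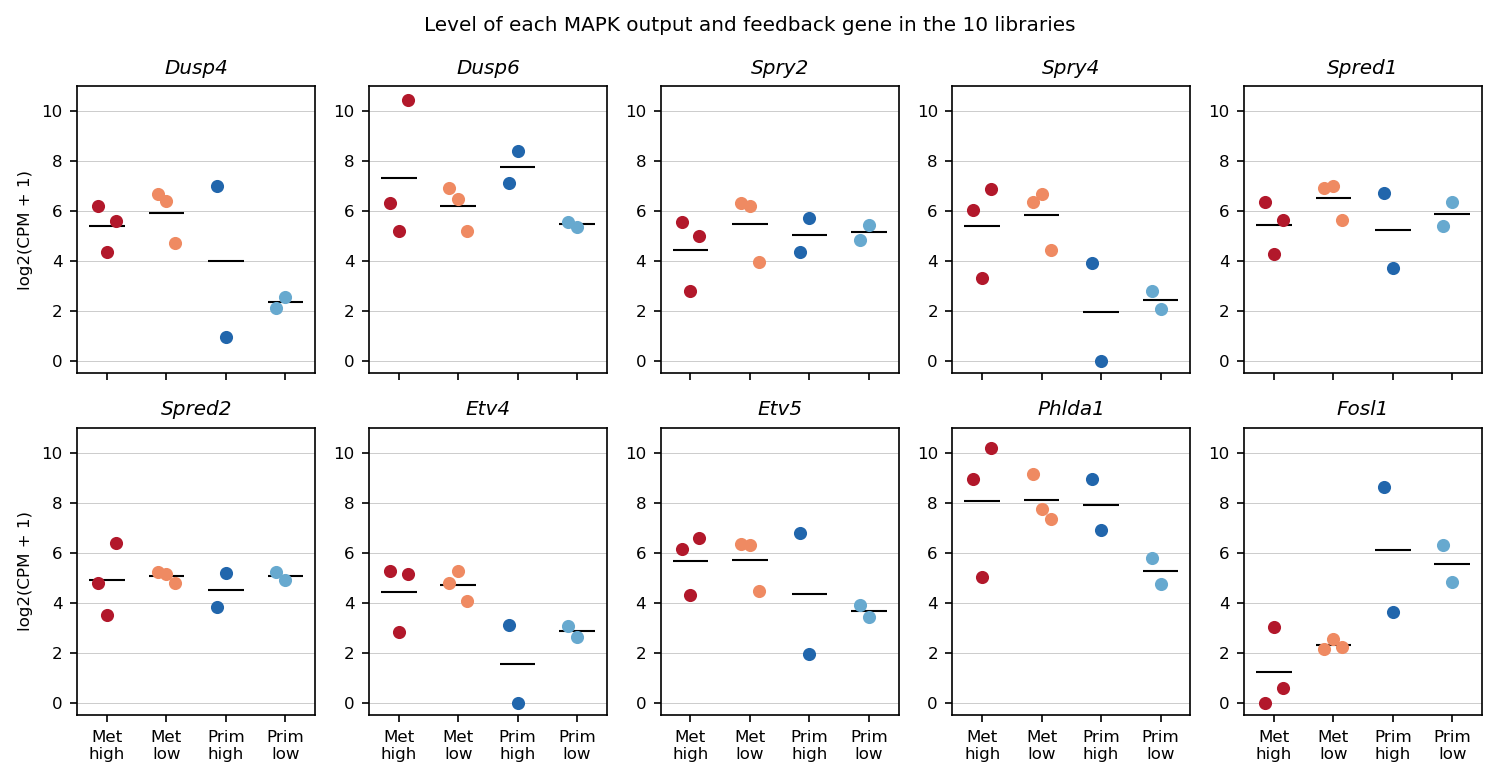
Level of each of the 10 genes in each library, as log2(CPM + 1), for metastatic c-Myc-high (3 libraries), metastatic c-Myc-low (3), primary c-Myc-high (2) and primary c-Myc-low (2) cells. Points are libraries and bars are group means. On this scale the 6 metastatic Fosl1 values lie below all 4 primary ones, and for the other 9 genes the sites overlap.

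Fosl1 encodes a FOS family subunit of the transcription factor AP-1, whose transcription and protein stability are both raised by ERK signalling. It had 0, 7.13 and 0.511 CPM in c-Myc-high metastases and 3.45, 4.89 and 3.68 CPM in c-Myc-low metastases, against 396 and 11.2 CPM in c-Myc-high primaries and 77.4 and 27.45 CPM in c-Myc-low primaries. In CPM, all 6 metastatic libraries were lower than all 4 primary ones. Of all genes, 5.06% showed that pattern in that direction and 5.73% in the other. In RPKM (reads scaled to transcript length and library size) the sites overlapped. There primary c-Myc-high replicate 2, with 12 counts, was at 0.355 and metastatic c-Myc-high replicate 2 at 0.959. The 0 in metastatic c-Myc-high replicate 1 stands at a depth where 3 counts would be 0.678 CPM before TMM scaling. The site difference was -4.97 (SE 1.09, 95% interval -7.35 to -2.59, edgeR adjusted p = 0.0126). Within classes it was -6.23 (SE 1.63, edgeR adjusted p = 0.0554) for c-Myc-high cells and -3.70 (SE 1.47, edgeR adjusted p = 0.246) for the c-Myc-low, and neither passed the threshold in this fit. Of 20 alternatives, 4 called it within c-Myc-high cells, among them DESeq2 (-6.30, adjusted p = 0.000347) and edgeR without the low-count filter (-6.34, adjusted p = 0.0206). There limma-voom did not (-7.58, adjusted p = 0.133). Within c-Myc-low cells 2 of 20 called it, limma-voom (-3.47, adjusted p = 0.00665) and edgeR on these groups alone (-3.76, adjusted p = 0.00719). There DESeq2 did not (-3.69, adjusted p = 0.0831).

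The Fosl1 call rested on primary c-Myc-high replicate 1: without it the difference was -3.06 and not called, with 1 library left in that group. Without metastatic c-Myc-high replicates 1 and 3, which hold the salivary gland transcripts, it was -4.27, with 1 library left in that group. Within c-Myc-high cells the gene was called without metastatic c-Myc-high replicate 2 (-9.86, edgeR adjusted p = 0.0306) or without primary c-Myc-high replicate 2 (-7.17, edgeR adjusted p = 0.0224), while without primary c-Myc-high replicate 1 the value was -2.32 (edgeR adjusted p = 0.400). The keratinocyte markers moved the same way between sites as Fosl1: all 16 were called lower in metastatic cells, with Krt5 at 3.58 to 7.54 CPM in metastatic and 1274 to 16863 CPM in primary libraries. Their part in the Fosl1 difference was not tested. Exons of Fosl1 (chromosome 19, 5447547 to 5455946, plus strand, GRCm38) overlap those of Ccdc85b on the opposite strand, and whether counting used strand is not given in the sources used here. Ccdc85b itself was at 0 to 3.23 CPM.

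Among the members that are inhibitors upstream of RAF, Spry4 was the one called. Spry4, a Sprouty protein that limits growth factor signalling to RAS and RAF, had 65.1, 8.97 and 116 CPM in c-Myc-high metastases and 80.3, 101.5 and 21.0 CPM in c-Myc-low metastases, against 14.2 and 0 CPM in c-Myc-high primaries and 6.03 and 3.18 CPM in c-Myc-low primaries. Of the 6 metastatic libraries 5 lay above all primary ones, and metastatic c-Myc-high replicate 2 lay below primary c-Myc-high replicate 1. The difference was 3.46 (SE 1.04, 95% interval 1.20 to 5.72, edgeR adjusted p = 0.0460). It was 3.06 in c-Myc-high (edgeR adjusted p = 0.200) and 3.86 in c-Myc-low cells (edgeR adjusted p = 0.234), neither past the threshold in this fit.

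The Spry4 call was lost without metastatic c-Myc-high replicate 1 (3.45, edgeR adjusted p = 0.0664) or 3 (3.07, 0.0700), without metastatic c-Myc-low replicate 1 (3.33, 0.0894), 2 (3.19, 0.105) or 3 (3.67, 0.0528), without primary c-Myc-high replicate 2 (3.0, 0.0669), and without replicate 1 (3.66, 0.178) or 2 (3.27, 0.173) of the c-Myc-low primaries. It held without metastatic c-Myc-high replicate 2 (3.71, edgeR adjusted p = 0.0282). It also held without primary c-Myc-high replicate 1 (7.56). The library then left in that group had 0 Spry4 counts, so 7.56 is not a measured size. Leaving out both libraries with salivary gland transcripts, which left 1 library in the c-Myc-high metastases, gave 2.04. Every one of these values was positive. Leukocyte and melanocyte markers also moved with site, 11 of 16 and 4 of 12 being called higher in metastatic cells, and their part in the Spry4 difference was not tested.

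The other Sprouty and SPRED genes among the members showed no called difference. Spry2, the sister of Spry4, ranged from 5.91 to 78.0 CPM (median 38.5) in metastatic and from 19.4 to 52.2 CPM (median 35.2) in primary libraries, with a log2 difference of 0.14 (95% interval -1.39 to 1.67, edgeR adjusted p = 0.929). Spred1 ranged from 18.55 to 128 CPM in metastatic and from 12.1 to 105 CPM in primary libraries (0.22, 95% interval -1.23 to 1.68, edgeR adjusted p = 0.872). Spred2 ranged from 10.2 to 81.8 CPM in metastatic and from 13.0 to 36.5 CPM in primary libraries (0.36, 95% interval -1.07 to 1.78, edgeR adjusted p = 0.775). For all 3 genes the metastatic range spanned most or all of the primary one, and the intervals reach beyond a log2 change of 1 in both directions.

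Etv4 and Etv5 are ETS transcription factors of the PEA3 group, induced by growth factor signalling through ERK. Etv4 had 37.7, 6.11 and 34.8 CPM in c-Myc-high metastases and 26.4, 37.8 and 15.8 CPM in c-Myc-low metastases, against 7.68 and 0 CPM in c-Myc-high primaries and 7.36 and 5.2 CPM in c-Myc-low primaries. As for Spry4, metastatic c-Myc-high replicate 2 was the only metastatic library within the primary range of these summed counts. The difference of 2.36 (SE 0.92, 95% interval 0.34 to 4.37, edgeR adjusted p = 0.110) did not pass the threshold. It did with DESeq2 on all libraries (2.38, adjusted p = 0.0146). It also did with primary c-Myc-high replicate 1 left out (6.02), where the library left in that group had 0 Etv4 counts. No other of the 19 alternatives called this difference. Etv4 counts were shared among 9 isoform rows. The most abundant rows, with the same counts and 30.8% of the total each, were all at 0 in metastatic c-Myc-high replicate 3. The counts of that library lay in minor rows. By the most abundant transcript the difference was 2.0 (edgeR adjusted p = 0.331).

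Etv5 had 70.5, 18.55 and 95.6 CPM in c-Myc-high metastases and 79.25, 77.6 and 20.8 CPM in c-Myc-low metastases, against 108 and 2.80 CPM in c-Myc-high primaries and 13.9 and 9.82 CPM in c-Myc-low primaries. Here primary c-Myc-high replicate 1 was the highest of all 10 libraries, while the other 3 primary libraries were below every metastatic one. The difference was 1.22 (95% interval -0.63 to 3.08, edgeR adjusted p = 0.371). It was 3.24 without that library, which left 1 library in its group, replicate 2, with 3 Etv5 counts.

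Promoter windows were searched for fixed ETS, AP-1, CRE and E-box motifs. The GGAA core that ETS factors bind was added after that search. RefSeq windows on GRCm38.p6, running from 250 bases before to 50 after a gene's start, matched 5 of the 10 genes by symbol (Dusp6, Spry2, Spred1, Spred2 and Etv5), in 6 windows. The 2 shown are those of Dusp6 (chr10:99262981-99263280, plus strand) and Etv5 (chr16:22438319-22438618, minus strand), a phosphatase and an ETS factor, each with 6 GGAA cores. Capitals mark the core on either strand, reading TTCC where it lies on the opposite one.
Dusp6: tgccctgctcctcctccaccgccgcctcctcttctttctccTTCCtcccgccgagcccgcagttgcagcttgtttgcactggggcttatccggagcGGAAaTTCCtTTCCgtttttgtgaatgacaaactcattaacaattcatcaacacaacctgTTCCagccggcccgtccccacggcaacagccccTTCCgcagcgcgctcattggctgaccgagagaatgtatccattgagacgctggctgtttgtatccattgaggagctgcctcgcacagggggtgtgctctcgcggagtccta
Etv5: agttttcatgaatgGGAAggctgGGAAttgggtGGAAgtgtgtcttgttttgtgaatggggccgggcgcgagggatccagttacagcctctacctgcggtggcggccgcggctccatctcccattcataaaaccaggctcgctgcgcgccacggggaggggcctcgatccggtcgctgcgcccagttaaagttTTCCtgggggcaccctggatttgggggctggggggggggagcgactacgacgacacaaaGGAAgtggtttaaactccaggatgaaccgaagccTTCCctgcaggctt

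The core occurred in 5 of the 6 windows, with 5 matches in Spred1, 5 in Spry2, 7 in Spred2, and 6 and 0 in the pair of Etv5 windows. Of 32851 windows in the table, 96.0% held it, with a median of 3 matches, so a match is the rule for any gene. The longer ETS motif CCGGAAGT, which contains the core (3.89% of windows), the AP-1 motif TGANTCA (7.81%), the CRE motif TGACGTCA (1.79%) and the E-box CACGTG (7.15%), searched on both strands, were found in 0 of the 6. A match is a description of the letters and not a binding site.

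The phosphatases Dusp4 and Dusp6 differed in which libraries were high. Dusp4, a nuclear phosphatase of ERK and other MAP kinases, had 72.7, 19.4 and 47.0 CPM in c-Myc-high metastases and 102.5, 82.5 and 25.4 CPM in c-Myc-low metastases, against 129 and 0.933 CPM in c-Myc-high primaries and 3.38 and 4.91 CPM in c-Myc-low primaries. As with Etv5, primary c-Myc-high replicate 1 exceeded every other library and the other 3 primary libraries lay below all 6 metastatic ones. The site difference of 1.79 (SE 0.94, edgeR adjusted p = 0.226) became 4.69 without that library. That left 1 library in its group, replicate 2, with 1 Dusp4 count. Within c-Myc-low cells, where neither primary library was high, it was 4.08 (SE 1.5, 95% interval 0.81 to 7.35, edgeR adjusted p = 0.204), and without primary c-Myc-high replicate 2, which enters that value through the shared spread, 4.08 with an edgeR adjusted p = 0.0463. With all libraries kept, DESeq2 (4.07, adjusted p = 0.0169), limma-voom (4.17, adjusted p = 0.00498) and edgeR on the c-Myc-low groups alone (4.02, adjusted p = 0.0166) called it too. In all, 4 of 20 alternatives called this difference.

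Dusp6, the cytoplasmic ERK phosphatase, had 78.3, 36.1 and 1396 CPM in c-Myc-high metastases and 120, 89.2 and 35.3 CPM in c-Myc-low metastases, against 139 and 339 CPM in c-Myc-high primaries and 45.6 and 40.45 CPM in c-Myc-low primaries. The value of metastatic c-Myc-high replicate 3 was above all others, and the sites overlapped. The site difference was 1.0 (95% interval -0.94 to 2.94, edgeR adjusted p = 0.501) and turned to -0.57 without that library.

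Phlda1, a protein with a pleckstrin homology-like domain that is induced by growth factors, was the most abundant member per transcript length in 3 of the 4 groups. Its exons overlap the lincRNA Gm28592 on the opposite strand, so without a known strand setting reads of both cannot be told apart. It had 498.5, 31.4 and 1172 CPM in c-Myc-high metastases and 565.5, 215 and 163 CPM in c-Myc-low metastases, against 488 and 119 CPM in c-Myc-high primaries and 54.0 and 25.7 CPM in c-Myc-low primaries. The c-Myc-high libraries overlapped between sites. The difference was 1.94 (SE 0.86, 95% interval 0.06 to 3.82, edgeR adjusted p = 0.153), and it passed without metastatic c-Myc-high replicate 2 (2.22, edgeR adjusted p = 0.0482). Without metastatic c-Myc-high replicates 1 and 3 it was -0.15, with 1 library left in that group.

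**Figure D2:**
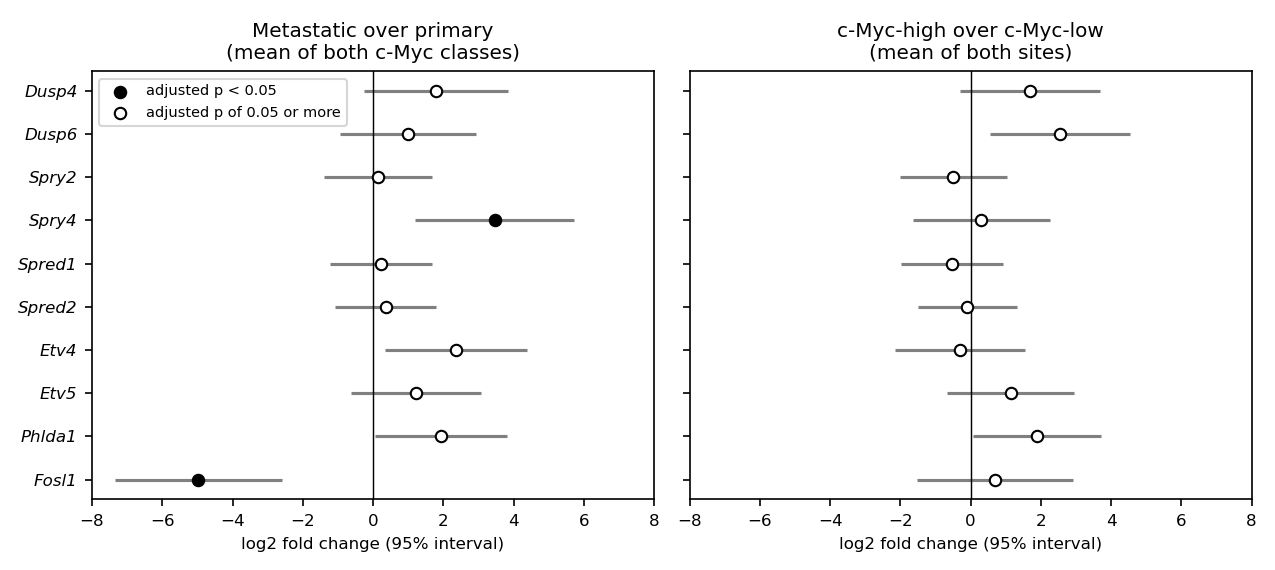
Fitted log2 fold changes of the 10 genes with 95% intervals, for metastatic over primary cells (left, mean of both c-Myc classes) and c-Myc-high over c-Myc-low cells (right, mean of both sites). Filled points have an adjusted p under 0.05, which holds for Spry4 (3.46) and Fosl1 (-4.97) on the left and for no gene on the right.

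Within c-Myc-high cells alone, the contrast of the study's design, 0 of the 10 genes were called, where 3.97% of all genes were (1.65% higher and 2.31% lower, 278 and 389 genes, or 358 and 335 without TMM scaling). The largest differences after that of Fosl1 were those of Spry4 (3.06, 95% interval -0.08 to 6.19) and Etv4 (2.63, 95% interval -0.27 to 5.53, edgeR adjusted p = 0.226). The median over the 10 genes was 0.43, against 0.38 over all genes. Within c-Myc-low cells 0 of 10 were called as well, with 2.11% of all genes called (0.375% higher and 1.74% lower). There the median was 1.5 against 0.10, and the values behind it included Dusp4 at 4.08, Spry4 at 3.86 and Phlda1 at 2.98 (SE 1.29, edgeR adjusted p = 0.295). Other fits called members there: limma-voom and edgeR on the c-Myc-low groups alone each called Dusp4, Spry4, Phlda1 and Fosl1, and DESeq2 called Dusp4 and Spry4. The adjusted p was 0.00765, 0.0243 and 0.0272 for Spry4 with limma-voom, these groups alone and DESeq2, and 0.0255 and 0.0362 for Phlda1 with limma-voom and these groups alone. Over all genes these fits called 3944 (limma-voom), 2247 (these groups alone) and 1708 (DESeq2), against 355 in the fit over all libraries. Of 20 alternatives there, 4 called Dusp4, 3 Spry4, 2 Phlda1 and 2 Fosl1.

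RPKM (reads scaled to transcript length and library size) allows levels of different genes to be compared within a library. On that scale the order of the genes differed between sites. The deposited RPKM was scaled between libraries otherwise than CPM. Dusp6 in c-Myc-high primaries had 581 and 363 counts, at 11.1 and 6.57 RPKM but 139 and 339 CPM. In metastatic c-Myc-high cells Phlda1 (29.9 ± 23.5 RPKM, SD, n = 3) and Dusp6 (15.9 ± 21.5) led and Fosl1 was lowest (0.328 ± 0.546). In metastatic c-Myc-low cells Phlda1 (45.1 ± 39.8 RPKM, SD, n = 3) again led and Fosl1 was again lowest (0.594 ± 0.169), with the other 8 genes between 2.93 and 8.06 RPKM.

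In primary c-Myc-high cells Phlda1 (29.5 ± 37.0 RPKM, SD, n = 2) and Fosl1 (25.9 ± 36.1) were followed by Dusp6 (8.82 ± 3.18), and Spry4 was lowest (0.343 ± 0.485). In primary c-Myc-low cells Fosl1 led (7.48 ± 7.69 RPKM, SD, n = 2), ahead of Phlda1 (4.8 ± 4.39), and Dusp4 (0.291 ± 0.0806) and Spry4 (0.232 ± 0.203) were lowest. Neighbours in these orders mostly differed by less than their SDs, Phlda1 and Fosl1 in both primary groups included.

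Between the c-Myc classes no member passed the threshold. In the mean of both sites edgeR called 0 of the 10 and 0% of all genes, with 2160 genes at an unadjusted p under 0.05 and 511 called by DESeq2. Within metastatic cells edgeR called 0% of genes too (807 at an unadjusted p under 0.05, 86 by DESeq2), as it did within primary cells (1953 and 406) and for the difference of the class effect between sites (1150 and 85). Of the 10 class differences, 6 were positive, with a median of 0.50, against 46.3% positive and a median of -0.11 over all genes.

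Dusp6 had the largest class difference, 2.55 in the mean of both sites (SE 0.92, 95% interval 0.54 to 4.55, edgeR adjusted p = 0.312). Primary c-Myc-high libraries were at 139 and 339 CPM and primary c-Myc-low ones at 45.6 and 40.45 CPM, and the metastatic classes overlapped. In metastatic cells the difference of 2.63 rested on metastatic c-Myc-high replicate 3 and was -0.51 without it, and the mean of both sites was then 0.98 (edgeR adjusted p = 0.459). Phlda1 differed by 1.89 (SE 0.83, 95% interval 0.07 to 3.70, edgeR adjusted p = 0.370). Without metastatic c-Myc-high replicates 1 and 3, which left 1 library in that group, it differed by -0.20.

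Dusp4 was 3.98 higher on the log2 scale in primary c-Myc-high than in primary c-Myc-low cells, without passing the threshold (SE 1.54, edgeR adjusted p = 0.419), and -0.60 in metastatic cells. The difference of these class effects was -4.58 (SE 1.86, edgeR adjusted p = 0.724). Without primary c-Myc-high replicate 1 the primary value was -1.95 and the difference 1.42, with 1 primary c-Myc-high library left. The class differences of Etv5 (1.15), Fosl1 (0.69), Spry4 (0.30), Spred2 (-0.09), Etv4 (-0.31), Spry2 (-0.49) and Spred1 (-0.53) had edgeR adjusted p-values between 0.587 and 0.997.

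Several of the genes varied together from library to library. Over the 10 libraries the log2 CPM of Spry4 and Etv4 had a Pearson r of 0.97, Dusp4 and Etv5 of 0.96, and Spry4 and Etv5 of 0.91. Among the 36 pairs without Fosl1, 33 had a positive r and the median was 0.44, while among the 9 pairs with Fosl1 1 was positive and the median was -0.26. Dusp6, Spred2 and Spry2 stood apart from the Dusp4, Etv5, Spry4 and Etv4 set: Dusp6 was most alike Phlda1 (0.68), and Spred2 was most alike Dusp6 (0.62). These values describe libraries that share 4 groups and differ in depth and marker content, so they are not tests.

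**Figure D3:**
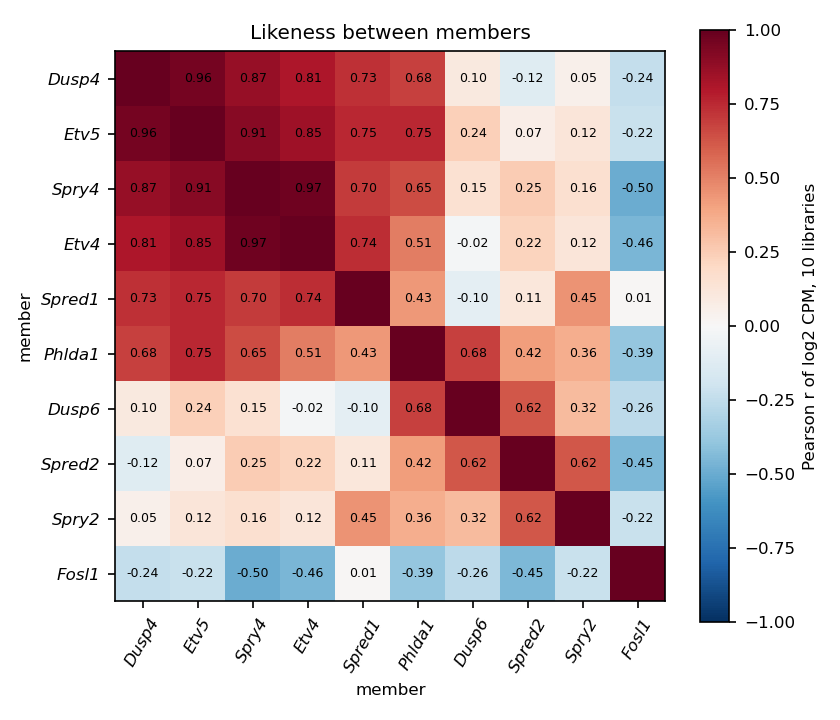
Pearson r of log2 CPM between each pair of the 10 genes over 10 libraries, red for positive and blue for negative values. Dusp4, Etv5, Spry4 and Etv4 form a block between 0.81 and 0.97, and Fosl1 is between -0.50 and 0.01 with every other gene.

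The mean standardised level of the 9 genes other than Fosl1 (each gene's log2 CPM as SDs from its mean over the 10 libraries) was 0.50, -0.96 and 0.97 in c-Myc-high metastases, 0.77, 0.67 and -0.23 in c-Myc-low metastases, 0.19 and -0.93 in c-Myc-high primaries and -0.48 and -0.51 in c-Myc-low primaries. Metastatic libraries thus held both the highest and the lowest value. The lowest value of each metastatic group was that of metastatic c-Myc-high replicate 2 and metastatic c-Myc-low replicate 3, whose leukocyte markers summed to 5757 and 3965 CPM, against 187 to 1760 CPM in the other 4 metastatic libraries. Ptprc, the pan-leukocyte phosphatase, was at 620 and 586 CPM in those 2. The part of leukocyte RNA in the low values was not tested. Leaving both libraries out gave site differences of -6.81 for Fosl1 (edgeR adjusted p = 0.0142) and 3.87 for Spry4 (edgeR adjusted p = 0.0407).

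Over all 10 members, the mean standardised level was most alike, among 10133 other named genes with a mean log2 CPM over 2, that of Dag1 (r = 0.961), Armc1 (0.937), Itgb1 (0.936), Edil3 (0.928) and Fmnl2 (0.927). Dag1 encodes the laminin receptor dystroglycan and Itgb1 the integrin beta subunit shared by many matrix receptors.

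**Figure D4:**
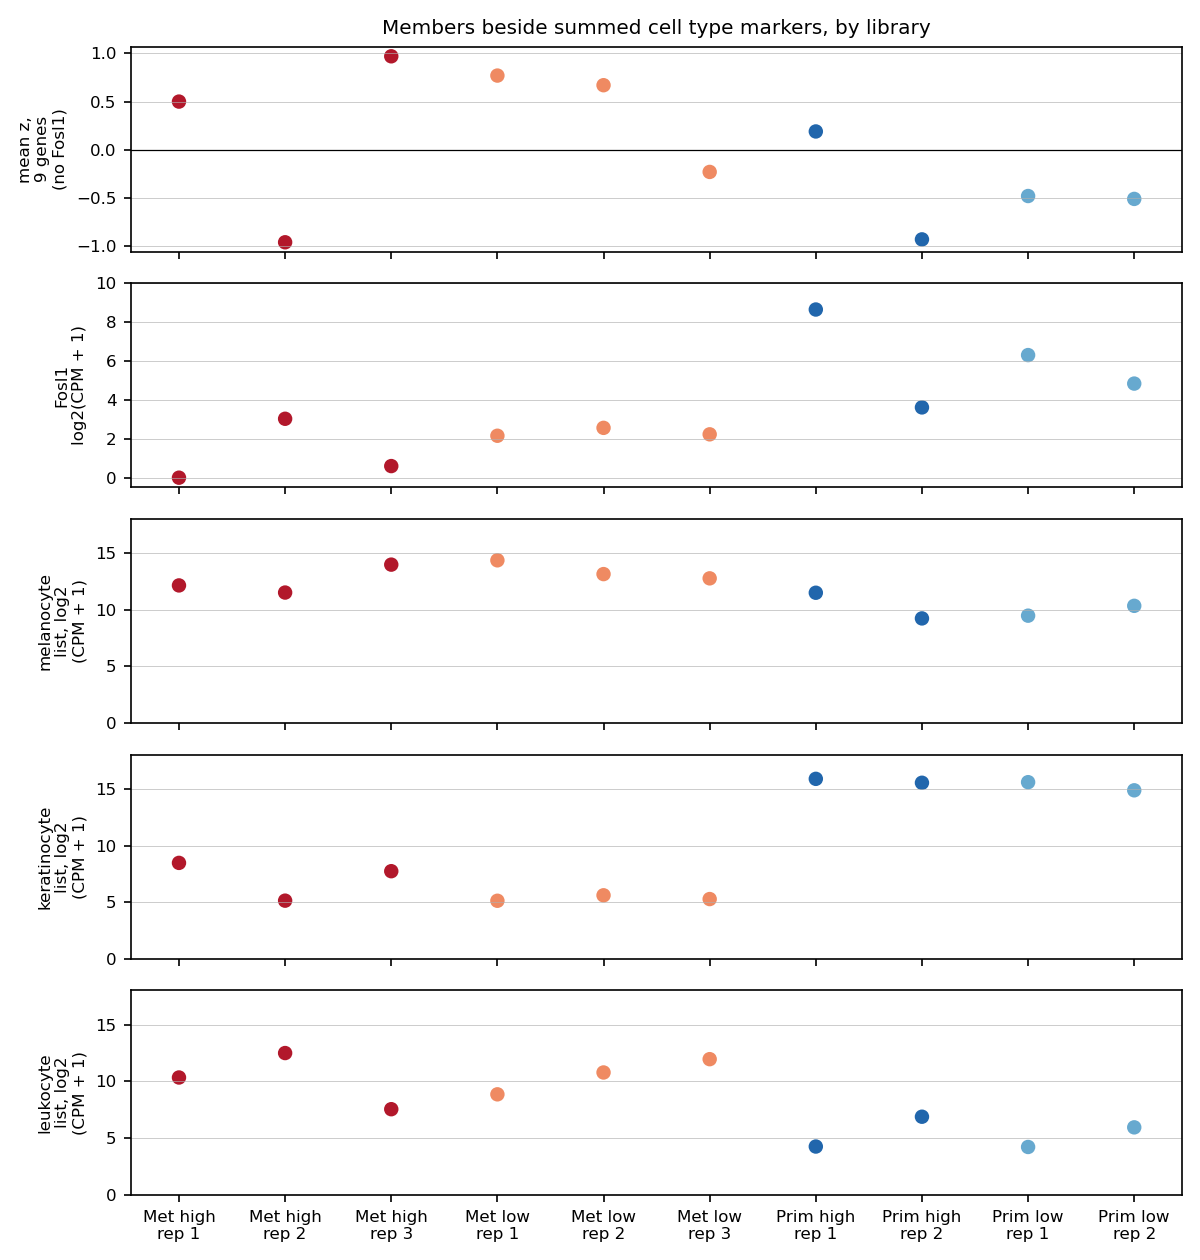
From top to bottom, by library: the mean standardised level of the 9 genes without Fosl1 (in SDs), Fosl1, and the summed melanocyte, keratinocyte and leukocyte markers, the last 4 as log2(CPM + 1). The 4 primary libraries have the highest Fosl1 and keratinocyte values, and the metastatic libraries with the most leukocyte transcript, c-Myc-high replicate 2 and c-Myc-low replicate 3, have the lowest level of the 9 genes in their group.

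Of 33 genes of the kinase cascade that feeds these genes, 1 rose and 3 fell in metastatic cells, a share near the 13.8% of all genes called in this comparison. Their median was 0.13, against 0.28 over all genes. Nf1, the neurofibromin that SPRED proteins recruit, averaged 137 ± 30.8 CPM in c-Myc-high and 220.4 ± 65.4 CPM in c-Myc-low metastases (SD, n = 3 each), against 42.4 ± 27.0 CPM in c-Myc-high and 53.4 ± 16.5 CPM in c-Myc-low primaries (SD, n = 2 each). Its 6 metastatic values, from 105 to 272 CPM, all lay above the 4 primary ones, from 23.3 to 65.0 CPM (1.86, SE 0.51, edgeR adjusted p = 0.0311). Of all genes, 5.73% showed that pattern. The scaffold Ksr1 (-2.35, edgeR adjusted p = 0.0291), the RAS GTPase-activating protein Rasal2 (-2.22, 0.0461) and Shoc2, a scaffold in RAF activation (-1.51, 0.0479), fell. The other 29 cascade genes were not called.

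Of 27 other feedback and output genes tested, 6 rose and 3 fell in metastatic cells, where 8.13% of all genes were called higher and 5.65% lower. Their median was 0.49, against 0.28 over all genes. Epha4, an ephrin receptor, was at 0.204 to 2.83 CPM in metastatic and 57.1 to 226 CPM in primary libraries (-6.93, SE 0.70, edgeR adjusted p = 0.000113). Epha2, an ephrin receptor induced by ERK, was at 0.408 to 7.27 CPM in metastatic and 30.6 to 120.2 CPM in primary libraries (-3.97, SE 0.73, edgeR adjusted p = 0.00524). Both were called lower within c-Myc-high cells too, and Epha4 also within c-Myc-low cells. Dusp7, a cytoplasmic ERK phosphatase like Dusp6, was at 26.6 to 67.8 CPM in metastatic and 154 to 1152 CPM in primary libraries (-3.38, SE 0.55, edgeR adjusted p = 0.00278). Dusp2, a nuclear MAP kinase phosphatase, was called in the other direction (6.55, edgeR adjusted p = 0.00991).

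The potassium channel gene Kcnn4 was at 58.2 to 125 CPM in metastatic and 1.44 to 13.3 CPM in primary libraries (4.65, SE 0.70, edgeR adjusted p = 0.00175). With Dusp2, the others that rose were Spred3, Etv1, Plaur and Bcl2l11, the 5 by 3.15 to 6.55. Etv1 is the remaining member of the PEA3 group and rose by 3.29 (SE 0.87, edgeR adjusted p = 0.0289). Spred3, the third SPRED gene, rose by 4.40 (SE 0.97, edgeR adjusted p = 0.0127), while Spred1 and Spred2 were not called.

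Immediate-early genes, transcribed within minutes of a stimulus without new protein synthesis, had a median of -0.58 over 21 tested, against 0.28 over all genes. Of them 1 was called higher and 2 lower, a share near the 13.8% of all genes. Egr2 was at 2.17 to 34.8 CPM in metastatic and 111 to 168.5 CPM in primary libraries (-2.79, SE 0.65, edgeR adjusted p = 0.0163), and Klf4, a factor also of the epidermis, at 6.52 to 50.6 CPM in metastatic and 183 to 387 CPM in primary ones (-3.17, SE 0.60, edgeR adjusted p = 0.00610). Klf2, abundant in leukocytes and endothelium, had 1372 counts in metastatic and 3 in primary libraries, a ratio of 246 per TMM-scaled library size (exact 95% binomial interval 83.9 to 1190, counting error only). Of 8 AP-1 partners of the FOS and JUN families and their relatives, Batf, a factor of lymphocytes, was the 1 called, again near the share of all genes. It had 299 counts in metastatic libraries, at 0.511 to 22.0 CPM, and 0 in primary ones (edgeR adjusted p = 0.0167). The metastatic mean was at least 54-fold higher by a floor of 3 counts over the primary libraries. In the class comparisons 0 genes of these 4 lists were called by edgeR. Keratinocyte markers fell and leukocyte markers rose between the same sites, and their part in these gene lists was not tested.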

How the data were processed

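RNA from sorted cells was extracted, amplified and made into low-input libraries with Ambion and Nugen kits for an Illumina sequencer, per the labels' protocols. The authors deposited 1 table of estimated counts per transcript, not scaled between libraries, and of RPKM per transcript, scaled to length and library size. Bowtie2, limma and mm10 are named in the submitters' processing notes. The sources used here do not give the counting program or its strandedness. The 10 members and the gene lists were chosen with earlier results of these data known.

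Counts were summed by gene name and rounded to whole numbers. Of 34162 genes, 16805 passed edgeR's filterByExpr. A group-means model over all 10 libraries was fitted with edgeR 4.0.16 in R 4.3.3 (TMM, robust quasi-likelihood, common biological coefficient of variation 0.876), with Benjamini-Hochberg adjustment within each comparison and calls at 0.05. Fold changes are log2 ratios of metastatic to primary cells, or of c-Myc-high to c-Myc-low cells. SEs come from the F statistic. RPKM values were summed by gene. Pearson r used log2 CPM with a prior count of 2. The smallest and largest libraries held 1603012 and 6844328 counts. The intervals of log2 fold changes rest on these SEs and so include the spread between libraries. The exact binomial interval of Klf2 and the floors of 3 counts cover counting error only. The labels name no molecular identifiers. Counts were simulated for 16805 genes with 50 genes changed per size, drawn from the more abundant genes. There the mean site comparison recovered 6% of log2 changes of 2, 82% of 4, 98% of 6 and 100% of 8. Far fewer genes were changed than the 2316 called in the data, so these shares need not hold for the data.

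Named were all 10 members, and per other list every called gene if 6 or fewer, otherwise the 4 with the lowest p; Etv1, Spred3, Dusp2, Plaur and Bcl2l11 were named beyond this after their values were seen. The Klf2 ratio uses counts and TMM-scaled library sizes summed over the libraries of a site, and the Batf bound the mean metastatic CPM over the floor. Positions were taken from GENCODE's annotation on GRCm38 (mm10), which held 95.69% of the deposited transcripts and all 28 rows of the members. The GGAA core was searched after the fixed motifs. Alternatives were DESeq2 1.42.0, limma-voom with quality weights and limma-trend on log2(RPKM + 0.5) (limma 3.58.1), no low-count filter, the most abundant transcript per gene, no TMM, the groups compared alone, the replicate number as a block, and each library left out. Leaving out the libraries rich in salivary gland or in leukocyte transcripts was chosen after seeing the data. Without the salivary-rich ones, 1 metastatic c-Myc-high library was left, replicate 2. With any 1 primary library left out, 1 was left in its group.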

Additional observations from a re-analysis of the deposited data

How the results depend on the processing

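Over 19 alternatives the site difference of Fosl1 stayed negative (-6.81 to -2.81, adjusted p 1.75e-05 to 0.134) and was called in 15, and that of Spry4 stayed positive (1.81 to 7.56, adjusted p 0.000958 to 0.216) and was called in 6. The 7.56 came from leaving out primary c-Myc-high replicate 1, with 0 Spry4 counts in the only library left in that group. DESeq2 gave no adjusted p for Dusp6. Without TMM scaling the median log2 change of all genes moved to 0.50 from 0.28 between sites and to -0.62 from -0.11 between classes. Of simulated log2 changes of 2 the mean site comparison recovered 6%. Far fewer genes were changed there than the 2316 called in the data, so that share need not hold for the data.

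Genes called for site in c-Myc-high cells (667) numbered 3304 with DESeq2 (2038 higher), 166 with limma-voom (0 higher), 121 on RPKM, 1273 unfiltered, 333 by the most abundant transcript, 335 from these groups alone, 0 without the salivary-rich libraries and 231 without the leukocyte-rich ones. For site in c-Myc-low cells (355) the counts were 1708 (1044 higher), 3944 with limma-voom, 774 unfiltered, 226, 2247 from these groups alone, 691 and 151 in that order. The mean site count (2316) was 3999 with DESeq2, 1140 on RPKM and 1298 without the leukocyte-rich libraries. For class, where edgeR called 0, DESeq2 gave 86 in metastatic cells, 406 in primary cells, 511 in the mean and 85 for the difference; limma-voom 2 in primary cells and 1 in the mean; RPKM 2 in metastatic and 8 in primary cells; no filter 2, 2 and 1 in primary cells, the mean and the difference. With 1 library left out, the counts ran from 294 to 1316, 131 to 570 and 744 to 2747 for the site comparisons in c-Myc-high cells, c-Myc-low cells and their mean. For class they ran from 0 to 33 in metastatic cells, 0 to 17 in the mean, and stayed at 0 in primary cells and for the difference.

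Same-numbered replicates did not deviate together (r from -0.305 to 0.141). With 2 or 3 libraries per group this cannot decide whether the numbers pair libraries, and the labels do not say. With the replicate number as a block, 150, 140 and 965 genes were called for site in c-Myc-high cells, c-Myc-low cells and their mean. With the block, Fosl1 was -4.50 (adjusted p = 0.134, edgeR) and Spry4 3.64 (adjusted p = 0.0934, edgeR) between sites. Values of uncalled members also changed sign with the block: in c-Myc-high cells Dusp4 (0.30), Dusp6 (-1.17), Spry2 (0.04) and Spred1 (0.12), in the mean site difference Dusp6 (-0.22) and Spred2 (-0.07), and between classes Spry4 (-0.38) and Fosl1 (-0.69).

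Other sign changes were all of uncalled members, and their causes were not tested. For site in c-Myc-high cells they were Dusp6 (-0.80), Etv5 (-0.39) and Phlda1 (-0.88) with limma-voom, Dusp4 (0.12) and Dusp6 (-0.06) on RPKM, Spred1 (0.24) by the most abundant transcript and 0.07 without the leukocyte-rich libraries, and Dusp6 (-2.73), Spred2 (-1.23), Etv5 (-1.6) and Phlda1 (-3.28) without the salivary-rich ones. In the mean site difference, without the salivary-rich libraries, they were Dusp6 (-0.90), Spry2 (-0.96), Spred1 (-0.48), Spred2 (-0.62) and Phlda1 (-0.15). Between classes in the mean of both sites, they were Spred2 with DESeq2 (0.14) and without the leukocyte-rich libraries (0.20), Spry4 with limma-voom (-0.39), on RPKM (-0.46), without TMM (-0.31) and without the salivary-rich libraries (-1.10), Etv5 on RPKM (-0.06), Fosl1 with limma-voom (-0.17), on RPKM (-0.19) and without the leukocyte-rich libraries (-1.08), and Phlda1 without the salivary-rich ones (-0.20). In metastatic cells Dusp6 was -1.18 without the salivary-rich libraries. With 1 library left out, values of uncalled members that changed sign ran as follows. For site in c-Myc-high cells these were Dusp4 (-1.47 to 5.40), Dusp6 (-2.06 to 1.85), Etv5 (-0.82 to 4.27), Phlda1 (-0.20 to 2.09), Spred1 (-1.09 to 1.81), Spred2 (-0.37 to 1.6) and Spry2 (-1.12 to 0.50). For the mean site difference these were Dusp6 (-0.57 to 1.39), Spred1 (-0.19 to 1.21), Spred2 (-0.19 to 0.80) and Spry2 (-0.29 to 0.58). For the mean class difference these were Dusp4 (-1.24 to 2.18), Etv4 (-3.99 to 0.13), Etv5 (-0.88 to 1.62), Fosl1 (-1.31 to 1.18), Spred2 (-0.63 to 0.33) and Spry4 (-3.79 to 0.75). The -3.99 and -3.79 came without primary c-Myc-high replicate 1, where the library left in that group had 0 counts of either gene. Dusp6 between classes in metastatic cells ran from -0.51 to 3.18, Dusp4 in primary cells from -1.95 to 4.96, and the Dusp4 difference of class effects from -5.56 to 1.42.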
